A study of Homo sapiens with 2 samples.

Results

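The DHRS2 class is a set of 250 cell barcodes from a mixture of lung adenocarcinoma cell lines, chosen by UMIs of the genes DHRS2, NALCN-AS1, ZNF676 and PLK5. A UMI (unique molecular identifier) counts 1 captured RNA molecule. A barcode was a member if it had at least 1000 UMIs, at least 1000 counts in open-chromatin peaks and at most 20% mitochondrial UMIs. It also needed at least 2 UMIs of the 4 markers and at least 70% of the UMIs of the markers of 5 classes chosen in the same way. Of 3298 barcodes 2804 passed the limits, and the 250 members were 8.92% of these (exact binomial interval 7.89% to 10.0%). The comparison classes, named by their first marker, were the RBFOX3 class (746 barcodes), the S100A9 class (400), the SLC30A8 class (513) and the GRIA4 class (297), and 598 barcodes fell in no class.

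The established lines A549, H838, H1975, H2228 and HCC827 were cultured separately in RPMI medium with fetal calf serum to near confluence, frozen as single-cell suspensions and combined in equal shares. No drug or experimental genetic change set them apart. Droplets were captured once, the tube was divided, and its 80% fraction gave an RNA and an ATAC library that carry the same 3298 barcodes. With 1 library of each kind there are no replicates: no test was made, all intervals are 95% and cover counting error only, and the barcodes carry no line label.

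Of the gene lists read, the one with the largest share of members higher in the class was a group of C2H2 zinc finger genes, a family that has grown by repeated duplication and is concentrated on chromosome 19. Most carry a KRAB domain, which recruits the corepressor TRIM28 and, through it, enzymes that lay down silencing histone marks. The primate-rich group in band 19p12 includes ZNF91 and ZNF93, known for repressing SVA and LINE-1 transposable elements.

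The 19p12 promoters are shown first because a shared stretch of bases recurs in them. RefSeq promoters on GRCh38.p14 were matched for 25 of the 32 genes of the 19p12 list, and the 250 bases before the start are printed 5′ to 3′, with every TCCAATCA on either strand in capitals. ZNF90 (chr19:20077750-20077999, plus strand) and ZNF85 (chr19:20923001-20923250, plus strand) were higher in the DHRS2 class, and ZNF492 (chr19:22634074-22634323, plus strand) was not. ZNF556 (chr19:2867085-2867334, plus strand) and ZNF135 (chr19:58058989-58059238, plus strand) are leading genes from elsewhere on the chromosome, with and without the shared bases.
ZNF90: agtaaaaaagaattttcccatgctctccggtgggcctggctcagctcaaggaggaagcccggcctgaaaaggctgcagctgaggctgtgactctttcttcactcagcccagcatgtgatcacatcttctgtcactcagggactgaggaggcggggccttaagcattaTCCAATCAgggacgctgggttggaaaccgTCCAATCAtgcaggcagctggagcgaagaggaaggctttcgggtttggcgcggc
ZNF85: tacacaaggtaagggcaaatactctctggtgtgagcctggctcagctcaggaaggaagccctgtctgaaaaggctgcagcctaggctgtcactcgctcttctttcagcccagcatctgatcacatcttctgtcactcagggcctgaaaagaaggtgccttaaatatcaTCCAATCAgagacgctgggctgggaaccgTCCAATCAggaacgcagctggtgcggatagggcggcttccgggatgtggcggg
ZNF492: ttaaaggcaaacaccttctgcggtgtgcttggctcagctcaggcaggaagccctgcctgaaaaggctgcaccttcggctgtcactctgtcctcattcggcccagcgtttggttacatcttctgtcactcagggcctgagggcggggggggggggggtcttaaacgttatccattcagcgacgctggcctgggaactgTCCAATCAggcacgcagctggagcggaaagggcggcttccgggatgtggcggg
ZNF556: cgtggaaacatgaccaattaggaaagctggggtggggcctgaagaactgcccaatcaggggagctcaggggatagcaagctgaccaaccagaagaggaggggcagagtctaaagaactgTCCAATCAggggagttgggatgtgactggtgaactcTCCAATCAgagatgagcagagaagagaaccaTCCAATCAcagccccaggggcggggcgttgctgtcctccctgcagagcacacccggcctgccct
ZNF135: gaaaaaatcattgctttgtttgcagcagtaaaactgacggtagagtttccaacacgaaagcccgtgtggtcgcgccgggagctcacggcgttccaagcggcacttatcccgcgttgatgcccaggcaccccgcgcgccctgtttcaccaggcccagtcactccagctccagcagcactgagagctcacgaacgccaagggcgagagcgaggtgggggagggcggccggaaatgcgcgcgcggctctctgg

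The members held 6532059 UMIs and 12883047 peak counts. Their median was 15343.5 UMIs (1868 to 179385), against medians of 4746.5 to 13942 in the other classes, and the median of their peak counts was 32386. Their mitochondrial share was split: 81 members had at most 2%, 30 had 2% to 10% and 139 had more than 10%. The 87 members with at most 5% had a median of 6375 UMIs and the 163 above 5% a median of 24506, and the latter held 91.1% of the UMIs. The RBFOX3 and SLC30A8 classes lay mostly at the low end, with median mitochondrial shares of 0.435% and 0.463%. Some values that move with this share are therefore given for both kinds of member, and others are given pooled only. Without the mitochondrial limit there would be 305 members. Markers of the other 4 classes made up 10.7% of the members' marker UMIs, against 6.02% to 6.93% in the other classes, and 116 members had none.

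**Figure D1:**
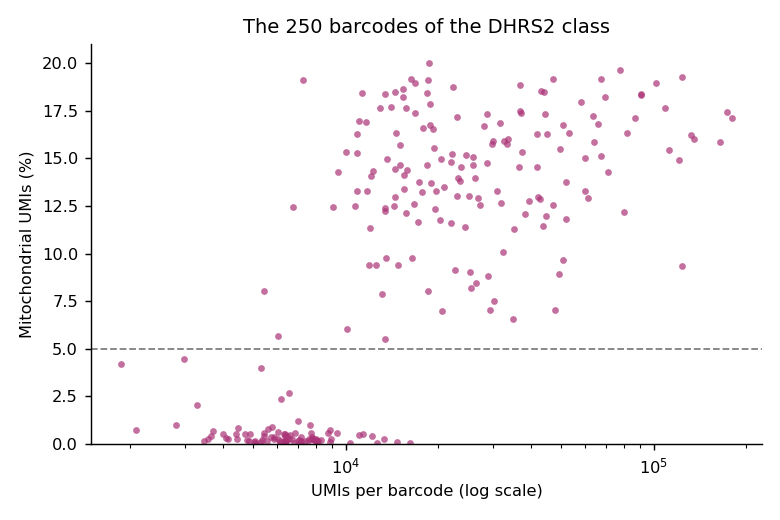
UMIs per barcode (log axis) against the percentage of mitochondrial UMIs for the 250 members, 1 point each, with a dashed line at 5%. The 87 barcodes under the line are shallower (median 6375 UMIs) than the 163 above it (median 24506 UMIs).

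The 4 markers chose the members, so their levels are a description. DHRS2 encodes a dehydrogenase/reductase of the short-chain family and was at 237 UMIs per 1000000 (CPM) in the members and 1.48 to 7.04 CPM in the other classes. The antisense transcript NALCN-AS1 was at 193 CPM against 0.847 to 6.57 CPM. ZNF676, a 19p12 zinc finger gene, was at 152 CPM against 1.27 to 6.12 CPM, and PLK5, an atypical polo-like kinase gene, at 81.0 CPM against at most 2.82 CPM. By mitochondrial share, PLK5 was at 216 CPM in members with at most 5% and at 67.7 CPM in those above. NALCN-AS1 was at 393 and 174 CPM, ZNF676 at 238 and 144 CPM and DHRS2 at 254 and 235 CPM. After thinning every barcode to 1000 UMIs, DHRS2 was seen in 22.4% of members and in 0.195% to 0.337% of the other classes. When each marker in turn was left out of the rule, 213 to 229 barcodes remained, which the rule makes a subset of the 250. The marker left out was then still at 231 CPM for DHRS2, 186 CPM for NALCN-AS1, 156 CPM for ZNF676 and 78.9 CPM for PLK5, against at most 34.3 CPM, 13.7 CPM, 7.51 CPM and 4.66 CPM elsewhere.

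Just inside the share threshold lay 36 members with 70% to under 80% of marker UMIs, and just outside it 40 barcodes with 60% to under 70%. The summed level of the 19p12 zinc finger genes without the marker ZNF676 was 1845 CPM in the former and 1813 CPM in the latter. At the threshold of 2 UMIs, 19 members with 2 or 3 marker UMIs had 3066 CPM, and 14 barcodes with 1 marker UMI and a share over the threshold had 2241 CPM. The barcodes outside both limits thus had levels of these genes above the other classes, where the highest was 1019 CPM.

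The working name of these barcodes was mesenchymal-leaning, which the data bore out in part only. A gene was counted as higher or lower when its CPM + 1 differed at least 2-fold from the mean CPM of the other 4 classes + 1. By that count 1071 of the 19854 genes with at least 20 UMIs were higher (5.39%) and 2321 lower (11.7%), with a median log2 ratio of -0.16. Of the 21 mesenchymal genes measured, 8 were higher and 4 lower (median log2 ratio 0.27). Among 22 epithelial genes the counts were 0 and 3 (median -0.32), the lower ones including ELF3, an epithelial transcription factor, at 29.7 CPM against 8.83 to 247 CPM. The summed mesenchymal level was 4204 CPM, and the S100A9 class had 4286 CPM. The summed epithelial level was 2272 CPM, against 1781, 2480, 586 and 4510 CPM in the RBFOX3, S100A9, SLC30A8 and GRIA4 classes. The keratin gene KRT8 was highest in the members, at 295 CPM against 96.4 to 259 CPM. With every barcode thinned to 1000 UMIs, 4 mesenchymal genes were higher.

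COL5A1, a chain of type V collagen, was at 392 CPM (377 to 407), against 25.7, 126, 8.30 and 6.99 CPM in the RBFOX3, S100A9, SLC30A8 and GRIA4 classes. The matrix protein gene TGFBI was at 1483 CPM (1453 to 1513), against 250, 583, 326 and 353 CPM. Both were highest in the members, but TGFBI was at 617 CPM in members with at most 5% mitochondrial UMIs and at 1568 CPM in those above. The intermediate filament gene VIM was at 776 CPM, below the 847 CPM of the S100A9 class and above the other 3 (49.8 to 284 CPM). SPARC (173 CPM) was below the SLC30A8 class (197 CPM), and LOX (112 CPM), a collagen cross-linking enzyme, below the S100A9 class (150 CPM). SNAI1 and SNAI2, repressors of E-cadherin, were low in level at 10.3 and 6.43 CPM, though highest in the members. CDH2 (N-cadherin) went the other way, at 1.53 CPM against 96.0 CPM in the RBFOX3 class and 1.41 to 5.30 CPM in the others, and TWIST2 was at 10.3 CPM against 34.7 to 93.9 CPM. The start peaks did the same for these lower genes: a peak at the start of CDH2 had a count of 0 in the members and was at up to 13.9 CPM elsewhere, and one at TWIST2 was at 5.05 CPM against 15.2 to 24.0 CPM. At COL5A1, TGFBI and VIM no start peak reached 2-fold, with log2 ratios from -0.61 to 0.51.

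Collagens went both ways: of 23 measured, 7 were higher and 9 lower (5.39% and 11.7% of all measured genes were). COL1A2, a chain of fibrillar type I collagen, was at 55.4 CPM against at most 2.82 CPM, but at 13.7 CPM (5.92 to 27.0) in members with at most 5% mitochondrial UMIs and at 59.5 CPM in those above. It was seen in 22% of members, the lowest share among the leading genes. Its partner COL1A1 (91.4 CPM, S100A9 class 118 CPM) was not higher in members at or under 5%, where its log2 ratio was -0.48 in place of 1.38. COL8A1 was at 155 CPM against 4.59 to 38.8 CPM, and was higher in both kinds of member (226 and 148 CPM). Type V collagen differed by chain, since COL5A1 was higher and COL5A2 was counted as lower, at 12.4 CPM against 300 CPM in the RBFOX3 class and 10.2 to 12.1 CPM elsewhere. All 6 chains of type IV collagen, the network of basement membranes, were counted as lower, 4 of them lowest in the members: COL4A5 was at 30.0 CPM against 83.1 to 711 CPM, COL4A4 at 4.29 CPM against 5.93 to 91.1 CPM, COL4A2 at 11.3 CPM against 35.6 to 72.5 CPM and COL4A1 at 4.29 CPM against 8.47 to 34.4 CPM. The RBFOX3 class raises the mean for the other 2: COL4A6 was at 13 CPM against 226 CPM there and 3.81 to 11.8 CPM elsewhere, and COL4A3 at 5.05 CPM against 74.0 CPM there and 3.64 to 14 CPM elsewhere.

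Of the 21 TGF-beta pathway genes 3 were higher and 2 lower. TGFBI is also in this list, and PMEPA1, a feedback inhibitor of the pathway, was at 247 CPM against 77.0 to 127 CPM. The receptor gene TGFBR3 was lower, at 36.1 CPM against 805 CPM in the SLC30A8 class, which raises the mean, and 7.20 to 84.0 CPM in the others. Among 27 integrins and laminins 3 were higher and 3 lower. Of all measured genes 5.39% were higher and 11.7% lower, and the counts of lower genes in both lists were near the latter share. The integrin genes ITGB3 (36.1 CPM against 2.10 to 20.2 CPM) and ITGA5 (88.5 CPM against 17.8 to 29.7 CPM) were highest in the members, while the laminin gene LAMB1 (58.6 CPM against 61.0 to 249 CPM) was lowest in them.

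No line name followed from line markers. Of 5 markers for H1975, 1 (CD274, at 26.6 CPM) was highest in the members, and none of the 7 for A549, 6 for HCC827, 5 for H2228 and 6 for H838 was. The class was therefore called by its leading gene. Markers of other cell types were mixed. Of 12 immune genes 7 had no UMI in the members, CD3D, CD3E, MS4A1 and NKG7 among them, and the summed immune level was 68.6 CPM against 17.1 to 50.2 CPM. Most of that sum was CD68, at 49.3 CPM. Of the 5 immune genes measured, 2 were higher, CD68 and CSF1R (8.11 CPM against 0.700 to 4.45 CPM), and 0 lower. With CD14, 3 were highest in the members, and PTPRC and CD79A were not. Among all measured genes 5.39% were higher and 14.3% highest. The 8 fibroblast markers summed to 155 CPM, the highest of the classes (9.18 to 125 CPM elsewhere), of which COL1A1 and COL1A2 held most. COL3A1 had no UMI and DCN 0.153 CPM, and the 3 that were higher were COL1A1, COL1A2 and PDGFRB (3.67 CPM). Red cell markers summed to 0.306 CPM, and 2 of 8 endothelial markers were measured, with neither past 2-fold. The endothelial sum was 36.1 CPM against 5.30 to 98.5 CPM, most of it PECAM1 at 32.6 CPM, and CLDN5 and TEK had no UMI. The part of other cell types in the results was not tested.

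**Figure D2:**
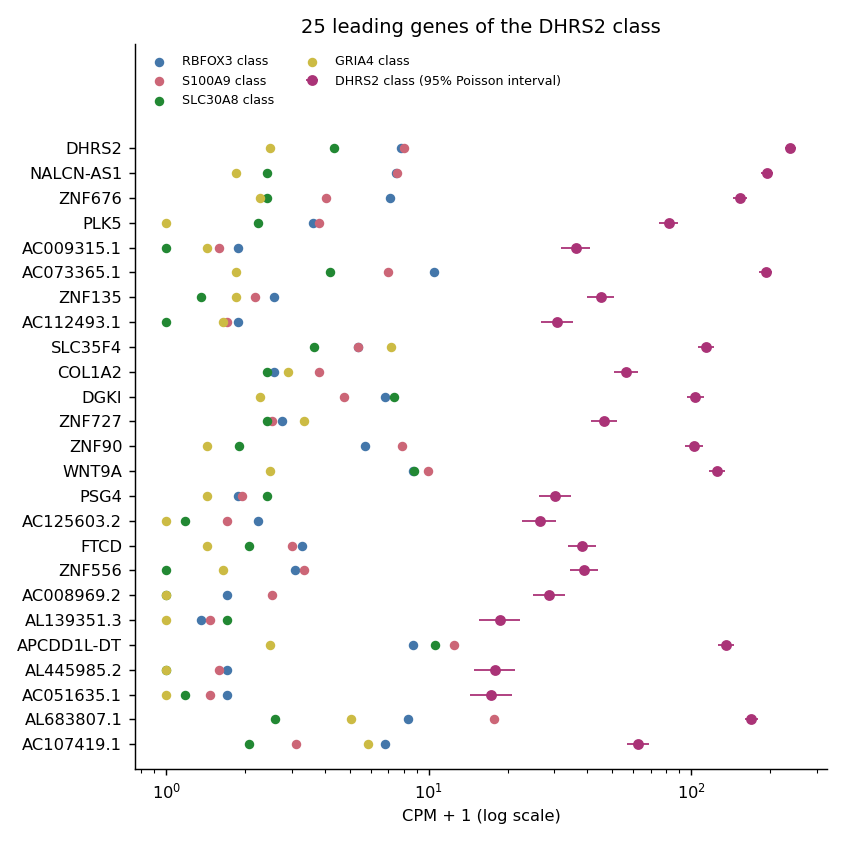
CPM + 1 (log axis) of the 25 leading genes in the 5 classes, with exact 95% Poisson intervals for the DHRS2 class. In each gene the DHRS2 class is to the right of the other 4 classes, from 16.2 CPM for AC051635.1 to 237 CPM for DHRS2.

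The 25 leading genes had the largest ratio of CPM + 1 to the next highest class. Of all measured genes 388 (1.95%) were at least 2-fold over every other class. Of the 25, 4 are the markers. Of the other 21, 5 lie on chromosome 19, which holds 6.67% of measured genes, and 4 are named ZNF, against 2.55%. ZNF135, at the far end of the long arm of chromosome 19, was at 44.1 CPM (39.1 to 49.5) against 0.353 to 1.57 CPM. ZNF90, of 19p12, was at 101 CPM against 0.424 to 6.92 CPM, and ZNF556, near the tip of the short arm, was at 38.1 CPM against 0 to 2.35 CPM. ZNF727 was the exception by position: it lies on chromosome 7, and was at 45.6 CPM against 1.41 to 2.33 CPM. Outside the zinc finger family, SLC35F4, a gene of the nucleotide sugar transporter family, was at 113 CPM against 2.65 to 6.14 CPM, and DGKI, a diacylglycerol kinase gene, at 103 CPM against 1.27 to 6.36 CPM. The secreted signal gene WNT9A was at 124 CPM against 1.48 to 8.92 CPM. FTCD, an enzyme of histidine breakdown, was at 37.4 CPM against 0.424 to 2.27 CPM, and PSG4, a pregnancy-specific glycoprotein gene whose near-identical relatives may share its reads, at 29.2 CPM against 0.424 to 1.41 CPM. Of the uncharacterised genes, AC073365.1 (191 CPM), AL683807.1 (168 CPM) and APCDD1L-DT (134 CPM) had the highest levels.

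The peak counts took no part in the choice of members beyond the depth limit. Of 107414 peaks with at least 100 counts, 11669 were at least 2-fold higher in the members (10.9%) and 10173 lower (9.47%). Which of the 2 was larger depended on the processing: with members and other classes at or under 5% mitochondrial UMIs the counts were 4824 and 11785, and with a marker share of 100% they were 5904 and 11348. A peak within 2000 bases of the deposited start interval of a gene is called a start peak, and of 26305 such peaks 5.15% were higher. Of the 25 leading genes 18 had a measured start peak, 14 of these with 1 past 2-fold and 15 with 1 highest in the members. The markers DHRS2, NALCN-AS1 and ZNF676 are among them. Of all start peaks 12% were highest in the members. The start peak of ZNF556 (chr19:2866716-2867624) was at 62.6 CPM of peak counts (56.7 to 69.1) against 1.24 to 2.53 CPM, and that of ZNF135 (chr19:58058963-58059825) was at 43.0 CPM against 0.872 to 2.15 CPM. The start peak of ZNF727 (chr7:64045054-64045923) was at 30.7 CPM against 0.436 to 1.42 CPM, and that of DHRS2 (chr14:23635760-23636604) at 29.3 CPM against 0.989 to 2.35 CPM. In these genes accessibility at the start and RNA were both highest in the members. WNT9A was different, with a start peak (chr1:227947637-227948476) of 38.4 CPM against 14.8 to 39.5 CPM. So was DGKI, whose start peak was at 0.543 CPM against 1.07 to 4.10 CPM despite its high RNA. For COL1A2 the peak past 2-fold lay at the start of AC002074.1. The peak nearest the start of COL1A2 itself was at 2.87 CPM against 1.22 to 5.51 CPM.

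Of the 27 measured zinc finger genes of 19p12, 26 were higher in the members and the same 26 were highest there, with a median log2 ratio of 2.08. Of all measured genes 5.39% were higher and 14.3% highest in the members. Without the marker ZNF676 the count was 25 of 26. ZNF91 was at 246 CPM (234 to 259), against 22.6, 98.9, 6.89 and 118 CPM in the RBFOX3, S100A9, SLC30A8 and GRIA4 classes. ZNF85 was at 87.9 CPM against 4.90, 7.86, 2.47 and 18.6 CPM, and ZNF681 at 46.5 CPM against 2.62, 8.22, 0.706 and 11 CPM. ZNF66 was at 106 CPM against 2.47 to 36.4 CPM, and ZNF254, with the smallest ratio of the 26, at 159 CPM against 5.65 to 99.7 CPM. For ZNF91, ZNF85, ZNF681 and ZNF66 the GRIA4 class came next and then the S100A9 class, and the SLC30A8 class was lowest for all 5 genes. ZNF492 alone was lower, with no UMI in the members (the interval of a count of 0 reaches 0.565 CPM) against 5.51 CPM in the GRIA4 class. The 5 genes ZNF729, ZNF98, ZNF99, ZNF208 and ZNF728 had fewer than 20 UMIs over the classes and were not measured. These genes are close paralogs, and how reads that match several of them were counted is not given in the sources used here, so single genes are uncertain to that extent.

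Summed over the 31 genes without ZNF676, the level was 2538 CPM (2499 to 2577), 2.49 times the 1019 CPM of the GRIA4 class, 3.22 times the 788 CPM of the S100A9 class, 5.88 times the 432 CPM of the RBFOX3 class and 6.73 times the 377 CPM of the SLC30A8 class. It was 3719 CPM in members with at most 5% mitochondrial UMIs and 2422 CPM in those above, so both kinds were over every other class. The count of 26 held under every alternative applied to it except thinning to 1000 UMIs, which gave 23.

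In the ATAC library the same genes were accessible at their starts. Of 37 start peaks of the 19p12 genes 33 were higher in the members (5.15% of all start peaks), 0 were lower and 35 were highest in them (12% of all start peaks), with a median log2 ratio of 1.78. By gene, 25 of 26 with a measured start peak had 1 past 2-fold, and ZNF43 was the exception at 0.99. The start peak of ZNF90 (chr19:20077541-20078399), which spans the promoter printed above, was at 37.6 CPM (33.1 to 42.7) against 0.948, 7.01, 0.872 and 0.711 CPM. That of ZNF85 (chr19:20922881-20923727) was at 39.0 CPM against 2.43, 20.4, 1.31 and 18.1 CPM, and that of ZNF91 (chr19:23395067-23395931) at 51.1 CPM against 4.12, 27.9, 2.53 and 17.4 CPM. At ZNF85 and ZNF91 the S100A9 class came next and then the GRIA4 class, the reverse of their order in RNA. For ZNF492 no start peak was measured.

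The pattern was also seen barcode by barcode. The 31 genes took a median of 0.257% of a member's UMIs, against 0.0282% to 0.0952% in the other classes. Their start peaks took a median of 0.135% of a member's peak counts, against 0.0175% to 0.0602%. The 95th percentile over the 1956 barcodes of the other classes was exceeded by 235 of the 250 members in RNA and by 223 in ATAC. After thinning to 1000 UMIs, at least 1 UMI of these genes was seen in 90% of members (85.6% to 93.4%) and in 26.4% to 55.2% of barcodes in the other classes; unthinned, the shares were 100% and 73.3% to 99.3%. By mitochondrial share, the median ATAC share was 0.142% in members at or under 5% and 0.127% in those above.

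**Figure D3:**
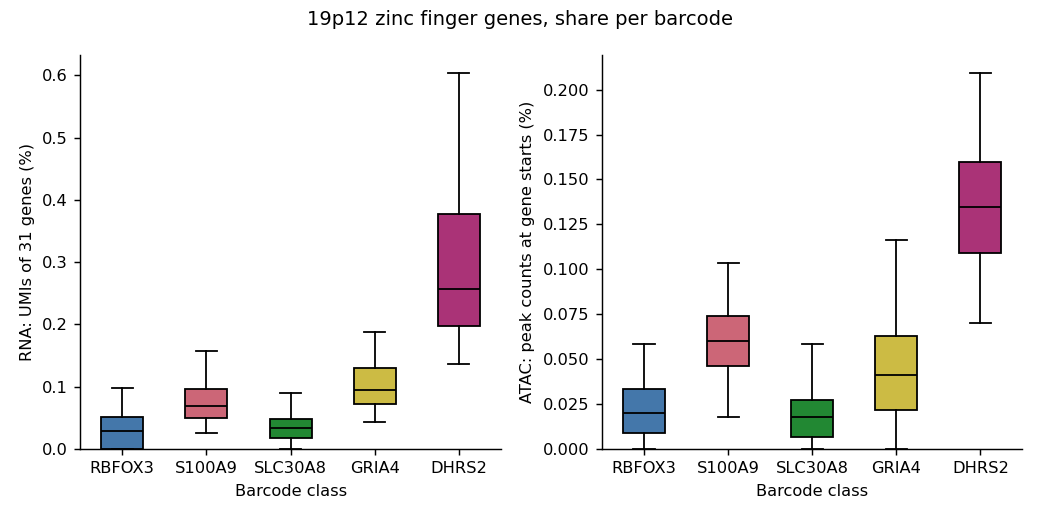
Share of each barcode's UMIs on 31 zinc finger genes of 19p12 (left) and of its peak counts at their starts (right), by class; boxes span the quartiles with the median as a line, and whiskers the 5th to 95th percentiles. The DHRS2 class is highest in both, with medians of 0.257% and 0.135%.

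The 8-mer TCCAATCA, which contains the CCAAT box core CCAAT, was the one most over-represented in the 19p12 promoters and was picked after the promoters had been compared. On either strand it was in 24 of 25, once in 10 and at 2 places in 14, and in 1.5% of 27303 RefSeq promoters of the same length. CCAAT itself was in 24 of 25 against 32.9% of all, the ETS core CCGGAA in 19 against 14.8%, the GC box GGGCGG in 18 against 41.6% and the TATA box TATAAA in 3 against 11.3%. The AP-1 motif TGANTCA, the E box CACGTG and the NRF1 core TGCGCA were in 0 of 25, against 6.74%, 6.33% and 6.93% of all. ZNF682, without the 8-mer, was higher in the members, and ZNF492, with 1 copy, was not. Duplicated promoters share bases by descent, so the 24 are not independent.

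The 8-mer went with higher RNA on chromosome 19 and not on other chromosomes. Outside the 19p12 list, 17 of 33 measured genes of chromosome 19 with it were higher (51.5%, median log2 ratio 1.03), against 106 of 893 without it (11.9%). All 17 were ZNF genes: among these, 17 of 27 with the 8-mer were higher (63%) and 42 of 173 without it (24.3%). On the other chromosomes 6 of 141 genes with it were higher (4.26%) and 502 of 11556 without it (4.34%). Position and promoter bases overlap in these paralogs, and their parts cannot be told apart.

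Zinc finger genes differed by where they lay. Of all genes named ZNF, 96 of 251 on chromosome 19 were higher and 8 lower. These counts include the 19p12 list, with 26 of 27 higher and the marker ZNF676 among them. On chromosome 7, 3 of 29 were higher and 0 lower, and on the remaining chromosomes 4 of 227 were higher and 13 lower. Within chromosome 19 the count was 29 of 31 between 15 and 25 Mb, the stretch that holds the 19p12 list. It was 20 of 43 between 7 and 15 Mb and 40 of 104 beyond 50 Mb, but 2 of 37 between 25 and 40 Mb and 3 of 31 between 40 and 50 Mb. For the other genes of the chromosome the median log2 ratio was 0.45 between 7 and 15 Mb, 0.25 between 15 and 25 Mb and 0.34 beyond 50 Mb, against -0.63 and -0.55 in the stretches from 25 to 40 Mb and from 40 to 50 Mb. Peaks that were not start peaks of ZNF genes had medians of 0.43, 0.27 and 0.25, against -0.75 and -0.67. Zinc finger genes had medians of 0.97, 2.03 and 0.72 in the former stretches and of -0.0044 and 0.03 in the latter, above their neighbours each time.

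In 5 Mb bins with at least 20 peaks, the bin of chromosome 19 from 20 to 25 Mb had the highest median of 569, with a log2 ratio of 2.03 over 123 peaks, 2.52 over its 73 peaks away from gene starts and 2.07 over 38 genes. The 5th to 95th percentiles over bins ran from -0.51 to 0.36. Of the other bins 3 had medians of at least 1: chromosome 7 from 60 to 65 Mb, where ZNF727 lies (1.69), and chromosome 5 from 20 to 25 Mb (1.37) and from 25 to 30 Mb (1.01). On chromosome 5 the genes did not follow, with medians of -1.27 over 8 genes and -0.30 over 4. The lowest bin was chromosome 7 from 55 to 60 Mb (-0.99). The number of gene copies was not measured, so more copies and more accessible chromatin cannot be told apart here.

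By chromosome, 15.3% of genes on chromosome 19 were higher, 11.5% on chromosome 22 and 8.10% on chromosome 7. For peaks the shares were 17.3%, 19.5% and 18.8%. Of all measured peaks 4077 were at least 2-fold over every other class (3.8%). Among the 100 with the largest ratio to the next class, 42 were on chromosome 19, which holds 4.6% of measured peaks, and 23 had a ZNF gene as the nearest start, against 1.07%. The leading peak (chr19:23310563-23311457) was at 62.0 CPM (56.1 to 68.4) against 1.11 to 2.49 CPM. It lay 12511 bases from the nearest start. Another (chr19:53389783-53390658), 4491 bases from ZNF765, was at 61.8 CPM against 1.57 to 2.53 CPM, and the RNA of ZNF765 was at 81.9 CPM against at most 41.1 CPM. On chromosome 22 the leading peak (chr22:29597227-29598090), 5466 bases from the tumour suppressor gene NF2, was at 48.0 CPM against 1.24 to 2.58 CPM, and NF2 itself was at 141 CPM against at most 48.9 CPM.

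**Figure D4:**
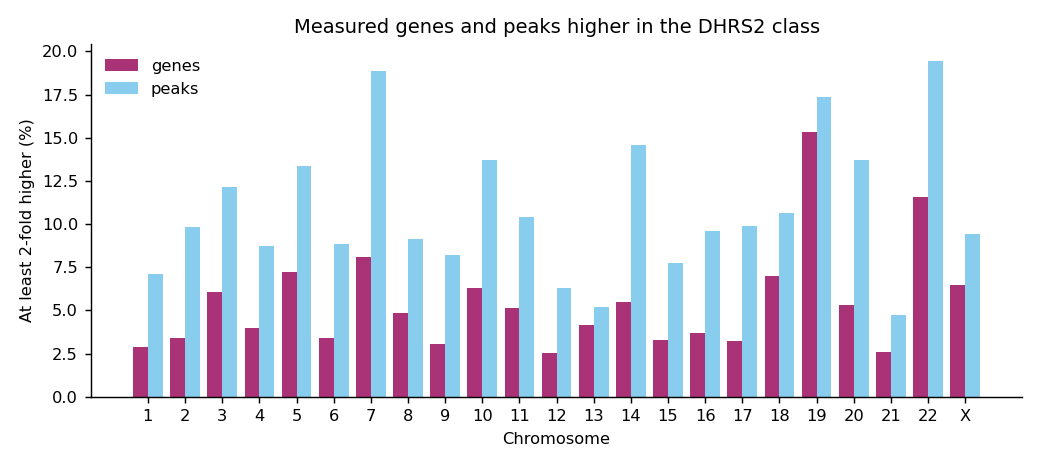
Percentage of measured genes and peaks on each chromosome that were at least 2-fold higher in the DHRS2 class than the mean of the other 4. Chromosome 19 leads for genes at 15.3%, and chromosome 22 for peaks at 19.5%.

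Because KRAB zinc finger proteins act through TRIM28, 30 regulators of heterochromatin and DNA methylation were also read, a list added after the zinc finger values had been seen. Of these 3 were higher and 1 lower (5.39% and 11.7% of all measured genes were). TRIM28 was at 75.2 CPM (68.7 to 82.1) against 33.6 to 39.6 CPM. UHRF1, which guides maintenance DNA methylation, was at 49.9 CPM against 10.1 to 36.4 CPM, and the histone demethylase gene KDM4B was at 93.4 CPM against 36.7 to 52.7 CPM. All 3 lie on chromosome 19, as does DNMT1, the maintenance methyltransferase gene, at 125 CPM against 49.9 to 113 CPM. DNMT3A, a de novo methyltransferase gene on chromosome 2, was lower, at 20.4 CPM against 18.7 to 58.6 CPM, and SETDB1, the methyltransferase gene that works with TRIM28, was at 67.7 CPM, within the 42.8 to 72.1 CPM of the others.

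**Figure D5:**
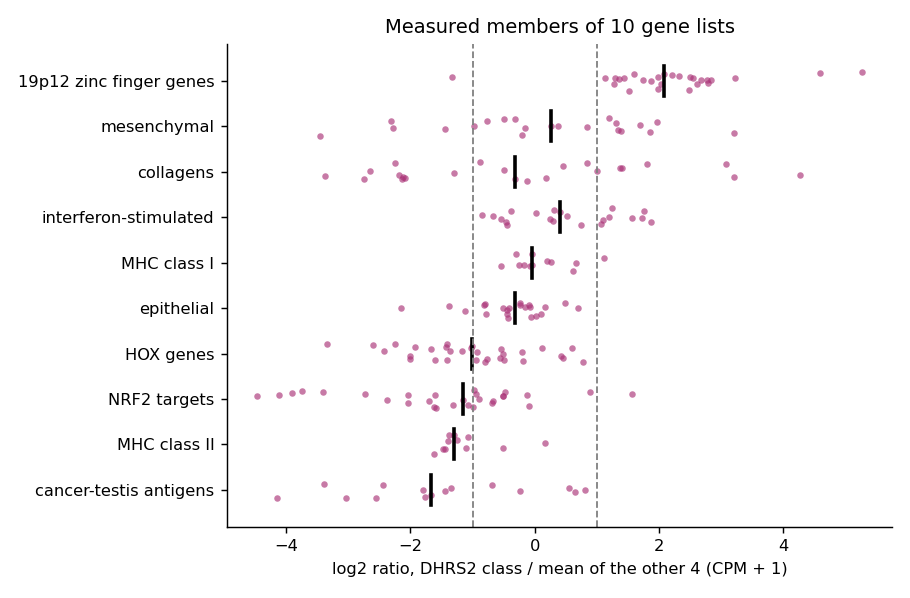
Log2 ratio of the DHRS2 class to the mean of the other 4 classes (CPM + 1) for each measured gene of 10 lists, 1 point per gene, with the median as a black bar and dashed lines at 2-fold. The 19p12 zinc finger genes lie to the right with 1 exception (median 2.08), and HOX genes, NRF2 targets, MHC class II and cancer-testis genes have medians under -1.

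HOX genes, which set position along the body axis, were low in the members. Of 31 measured, 16 were lower, 0 higher and 15 the lowest of the 5 classes. Among all measured genes 11.7% were lower and 12.7% lowest. Their summed level was 51.6 CPM, against 99.6 to 211 CPM. HOXB2 was at 0.306 CPM against 0.822 to 11.7 CPM, HOXB8 at 0.459 CPM against 0.704 to 17.3 CPM and HOXB6 at 2.76 CPM against 6.53 to 38.1 CPM. HOXD10 was at 0.612 CPM against 57.0 CPM in the SLC30A8 class, and 0 to 2.45 CPM in the other 3. The HOX-B genes named here were lowest in the members, and HOXD10 was low mainly against 1 class. HOXB2 and HOXB8 were under the 0.565 CPM that the interval of a count of 0 reaches, so their order against the next class is uncertain.

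Targets of NRF2, the factor that turns on genes against oxidative stress, were lower in 16 of 29 and higher in 1, but only 3 were lowest in the members. Among all measured genes 11.7% were lower and 12.7% lowest in the members. The aldo-keto reductase gene AKR1B10 was at 7.35 CPM against 705 CPM in the RBFOX3 class and 2.75 to 21.8 CPM elsewhere, AKR1C1 at 12.7 CPM against 843 CPM and 3.18 to 77.8 CPM, and GPX2 at 1.38 CPM against 100 CPM and 1.27 to 20.7 CPM. ABCC2, a transporter of conjugated compounds, was lowest in the members at 23.1 CPM against 68.6 to 749 CPM. The haem oxygenase gene HMOX1, a target of NRF2 and of other factors, was the 1 higher gene, at 29.9 CPM against 2.75 to 20.8 CPM. The AKR1C genes are near-identical and may share reads.

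Of 21 interferon-stimulated genes 8 were higher, 7 were highest in the members and 0 were lower. Among all measured genes the shares were 5.39% higher, 14.3% highest and 11.7% lower. IFIT2 was at 16.7 CPM against 0.706 to 8.90 CPM, IFIT1 at 13.3 CPM against 0.883 to 5.51 CPM, IFIT3 at 24.8 CPM against 3.36 to 14.8 CPM and OASL at 6.43 CPM against 0.177 to 3.17 CPM. Few members held them: IFIT2 was seen in 11.2% of members and at most 9.43% of another class, and IFIT3 in 18.8% and at most 14.25%. IFIT1 was seen in 17.6% and at most 7.07%, and OASL in 8% and at most 2.75%. The summed level was 732 CPM, and the S100A9 class had 765 CPM. Of 12 MHC class I genes the transactivator NLRC5 was higher, at 57.6 CPM against 11.9 to 35.4 CPM. MHC class II genes were counted as lower in 9 of 11 and acute phase and chemokine genes in 11 of 18, because the S100A9 class raises the mean: none of the former and 1 of the latter was lowest in the members. HLA-DRB1 was at 94.3 CPM against 943 CPM in that class and 21.2 to 61.7 CPM in the other 3.

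Cancer-testis antigens, whose genes are normally active in germ cells, were lower in 10 of 15 against a mean that the SLC30A8 class raises: MAGEA10 was at 0.919 CPM against 130 CPM there and 0.636 to 1.40 CPM elsewhere. Lung lineage genes were lower in 6 of 12, with the pioneer factor gene FOXA1 at 3.52 CPM against 1.77 to 37.7 CPM and NAPSA, a pneumocyte protease, at 8.57 CPM against 6.18 to 98.9 CPM. The S100A9 and GRIA4 classes raise the mean here too, and 0 of the 12 were lowest in the members. Their summed level was 152 CPM, against 117, 394, 31.8 and 508 CPM in the RBFOX3, S100A9, SLC30A8 and GRIA4 classes. Of 29 driver and tumour suppressor genes 5 were lower (11.7% of all measured genes were) and 0 higher. RB1 (33.8 CPM against 59.2 to 170 CPM) and MDM2 (47.0 CPM against 55.3 to 206 CPM) were lowest in the members. Few genes of the cell cycle passed 2-fold: of 41 S phase genes 1 was higher, UHRF1 again, and of 51 genes of G2 and mitosis 1 was higher and 1 lower.

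The 8 genes lowest against the next class included the growth factor gene FGF2, at 5.66 CPM (3.99 to 7.81) against 20.8 to 75.8 CPM. The scaffold gene MPDZ was at 17.3 CPM against 59.97 to 176 CPM. ZNF215, on chromosome 11, was at 1.99 CPM against 8.75 to 22.8 CPM. The start peaks of these 3 were also lowest in the members: at FGF2 0.776 CPM against 2.84 to 17.2 CPM, at MPDZ 4.04 CPM against 15.3 to 34.0 CPM and at ZNF215 2.87 CPM against 6.22 to 20.6 CPM. FGB, a fibrinogen chain gene also among the 8, differed, with RNA at 1.07 CPM against 5.75 to 133 CPM and a start peak at 5.51 CPM against 0.698 to 3.22 CPM.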

How the data were processed

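The authors deposited 1 matrix of unnormalised counts, UMI counts per gene and counts per peak, for the same 3298 barcodes in both libraries. The submitters' processing notes name Cell Ranger ARC 2.0.0 and the build GRCh38. The other deposited values are start and end positions of genes and peaks, per the file headers. Not given in the sources used here are how barcodes and peaks were called, the gene annotation, and any use of strand in counting RNA. NALCN-AS1 therefore cannot be told apart from other RNA of its locus. Libraries held 62477861 UMIs and 131221183 peak counts over 36601 genes and 187920 peaks.

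Barcodes were assigned to 5 classes by marker UMIs. Counts were summed per class and scaled to counts per 1000000 (CPM) of the class total. Ratios use a pseudocount of 1 CPM, which understates those of low genes. A gene was measured if it had at least 20 UMIs over the classes, and a peak if it had at least 100 counts. Sums have exact Poisson intervals and shares exact Clopper-Pearson intervals, at 95%. A fragment usually adds 2 peak counts (83.3% of non-zero entries were even), so peak intervals were computed on counts divided by 2. No doublet caller was run. The 70% share left out barcodes with mixed markers, and requiring a share of 100% or leaving out the deepest 5% of barcodes were alternatives. Factors from trimmed means (TMM, edgeR 4.0.16 in R 4.3.3) were an alternative scaling and were not used for a test. Scripts ran in Python 3.11.15 with numpy 2.4.6, scipy 1.17.1 and pandas 2.3.3, and were tested on simulated data.

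Named genes are the 4 markers, the 25 with the largest ratio to the highest other class, the 8 with the lowest ratio to the lowest other class, and up to 4 per direction in each list. VIM, SNAI2, SPARC, LOX, COL4A1, COL4A3, COL4A6, PECAM1, ABCC2, ZNF43, ZNF66, ZNF91, ZNF254, ZNF682, ZNF765, NF2, DNMT1, SETDB1, MDM2, CD68, CD274 and genes with no UMI were named after their values were seen. The members, the marker genes and the gene lists were chosen with earlier results of these data known. Promoters come from RefSeq (GRCh38.p14), leaving out chromosome 8. Some genes that the rule would name are not reported here.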

Additional observations from a re-analysis of the deposited data

How the results depend on the processing

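RNA and ATAC were read in the same barcodes, but with 1 library of each kind there was no replication, and no result comes from a test. Against 250 members, a marker share of 100% left 116 and a mitochondrial limit of 5% left 87. Peaks higher in the members (11669) numbered 5904 and 4824 under these, 7180 in members above 5% mitochondrial UMIs, 3363 with a pseudocount of 5 CPM and 1707 with a minimum of 500 peak counts. Peaks lower (10173) numbered 5180 above 5%, 1581 with the pseudocount of 5 CPM, 2776 with the minimum of 500 and 15693 with every barcode weighted the same. Genes higher (1071) and lower (2321) numbered 604 and 1038 with the pseudocount of 5 CPM. Thinning to 1000 UMIs gave 4 mesenchymal genes higher in place of 8. The range above 5% was chosen after seeing the data. A minimum or pseudocount leaves fewer features past 2-fold by construction, and for the rest the cause was not tested. Fewer peaks were higher than lower under 7 of 15 alternatives: a marker share of 100% (11348 lower), the limit of 5% (11785 lower), the rule without NALCN-AS1, leaving out the deepest 5%, equal weights, the minimum of 500 and TMM factors (9737 higher, 12322 lower). With TMM the median log2 ratio of all peaks moved from -0.05 to -0.16 and every peak ratio with it, while that of genes stayed at -0.15 to -0.16. The log2 ratios of COL1A1 (-0.48) and MT-ND4 (-1.11) had the opposite sign with the limit of 5%. Of 3194 values of single genes under the alternatives, 2128 stayed within their counting interval, 1064 moved past it and these 2 reversed. A gene with no UMI in the members could still be present at up to 0.565 CPM, the upper end of its interval.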
